A study of Homo sapiens with 4 samples.

Results

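The 3 genes described here encode the chains of fibrinogen: FGA (alpha), FGB (beta) and FGG (gamma). They were taken by symbol from a count table of 15037 genes, in which all 3 had a row, and they were selected on their raw counts, as genes that A549 cells express from 1 gene cluster, so their levels are given as a description. The cells were A549, a widely used human lung carcinoma line of epithelial origin, and poly(A) RNA was sequenced. There were 4 libraries, 2 of a PSME4 knockdown (PSME4 KD) and 2 of a control knockdown whose target the labels give as RFP (control KD). PSME4 (PA200) is a regulator that binds the ends of the proteasome core. All libraries thus come from knockdown cells, and the labels do not say how the knockdowns were made or whether the libraries of a group are separate cultures, so a p-value here reflects the spread of the libraries alone, and that spread may be technical.

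Fibrinogen is a secreted plasma protein in which pairs of alpha, beta and gamma chains are held together by disulphide bonds. Thrombin cuts short peptides from the alpha and beta chains, and the resulting fibrin assembles into the clot, which factor XIII crosslinks and plasmin dissolves. Hepatocytes are the main source, and the 3 genes are known as acute-phase genes that interleukin-6 (IL-6), through STAT3 and C/EBP factors, and glucocorticoids raise together; lung epithelial cells, A549 among them, are known to make fibrinogen as well.

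The cluster occupies 49677 bases of chromosome 4 on GRCh38. FGB lies on the plus strand at 154562980 to 154572807, FGA on the minus strand at 154583126 to 154590742 and FGG on the minus strand at 154604136 to 154612656. The gap between FGB and FGA is 10318 bases and that between FGA and FGG is 13393 bases. No other RefSeq gene overlaps any of the 3. The sequences before their starts are shown because the genes share a locus and known regulators while 1 of the 3 changed with the knockdown. Each is the 250 bases before the RefSeq start (build GRCh38.p14), 5′ to 3′ on the strand of the gene, at chr4:154612657-154612906 for FGG (minus strand), chr4:154590743-154590992 for FGA (minus strand) and chr4:154562730-154562979 for FGB (plus strand). Capitals mark matches, on either strand, to CTGGGA (the core of the IL-6 response element described for fibrinogen genes) and TTGCNNAA (C/EBP); no marked matches overlap.
FGG: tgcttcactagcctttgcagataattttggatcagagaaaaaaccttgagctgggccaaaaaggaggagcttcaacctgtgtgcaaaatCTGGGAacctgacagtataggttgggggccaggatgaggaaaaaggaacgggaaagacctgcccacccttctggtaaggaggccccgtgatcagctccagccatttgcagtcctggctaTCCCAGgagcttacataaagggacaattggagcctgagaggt
FGA: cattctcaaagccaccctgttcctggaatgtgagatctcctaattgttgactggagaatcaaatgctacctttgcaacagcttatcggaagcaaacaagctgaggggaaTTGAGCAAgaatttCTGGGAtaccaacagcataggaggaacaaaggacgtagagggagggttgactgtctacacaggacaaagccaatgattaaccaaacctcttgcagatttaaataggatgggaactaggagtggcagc
FGB: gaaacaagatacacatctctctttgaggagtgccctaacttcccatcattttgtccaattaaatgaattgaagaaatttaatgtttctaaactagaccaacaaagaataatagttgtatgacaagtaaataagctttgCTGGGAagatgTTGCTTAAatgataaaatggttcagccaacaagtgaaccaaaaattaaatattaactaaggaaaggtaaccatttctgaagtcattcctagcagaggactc

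CTGGGA was found in all 3 sequences. Its first base lay 161 bases before the start in FGG, 127 in FGA and 112 in FGB, and FGG held a further match on the opposite strand, 42 to 37 bases before the start. TTGCNNAA was found 141 to 134 bases before the start of FGA, on the opposite strand, and 101 to 94 bases before that of FGB, with 0 matches in FGG. Over the same 250 bases of 27305 RefSeq genes, 28.8% held CTGGGA and 9.12% held TTGCNNAA. Other motifs were scanned and are not marked above. Matches to CCAAT numbered 1 in each of the 3 sequences, and 33.1% of the RefSeq genes held it. The STAT motif TTCNNNGAA had 1 match in FGA and 0 in FGB and FGG (6.78% of the RefSeq genes). The palindromic E-box CACGTG and the TATA box, scanned as TATAAA, had 0 matches in all 3 (6.48% and 11.2% of the RefSeq genes). The FGG sequence also had the highest GC content, 50.8%, against 45.2% for FGA and 33.2% for FGB. These matches are a description of letters and do not show which factors bind.

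The knockdown was visible in the targeted gene, which stood at 75.3 and 85.1 CPM (counts scaled to a common library total, with TMM factors) in PSME4 KD 1 and 2, against 158 and 180 CPM in control KD 1 and 2, a log2 fold change of −1.08 (SE 0.20; edgeR adjusted p = 0.000855). It was between −1.17 and −0.97 when 1 library was left out, and its call was then kept without PSME4 KD 2 (adjusted p = 0.0145, edgeR) but not without PSME4 KD 1 (0.144), control KD 1 (0.0522) or control KD 2 (0.0599). Total counts were 15208588 and 14845701 in PSME4 KD, against 11766371 and 11769392 in control KD. All 10 markers of lung carcinoma epithelial cells were at or above 1 CPM in every library, with summed levels of 27266 to 29419 CPM in PSME4 KD and 25076 to 25606 CPM in control KD. Of 14 hepatocyte markers, 7 could be tested. None passed by edgeR, DESeq2 or limma voom, and 1 of the 7 had an unadjusted p under 0.05 by edgeR. Unadjusted p-values under 0.05 were common over the whole table. An edgeR p of 0.0487 for the thrombin receptor gene F2R, for instance, became 0.189 after adjustment. Counts of such p-values, here and below, are a description. The share of all tested genes under this threshold is not given here, so these counts cannot be read as high or low. The summed levels of the hepatocyte markers were 1211 to 1531 CPM in PSME4 KD and 1558 to 1746 CPM in control KD, nearly all of it CPS1. Albumin (ALB) was at 1.97 and 2.03 CPM in PSME4 KD and at 1.12 and 1.46 CPM in control KD. Of 8 fibroblast markers 4 could be tested, with summed levels of 29.8 to 33.5 CPM in PSME4 KD and 23.5 to 24.8 CPM in control KD. By edgeR 1 rose and 1 fell, 50% of the 4, where 10.6% of all tested genes were called. COL1A1 rose, at 17.3 and 19.3 CPM in PSME4 KD against 10.6 and 11.4 CPM in control KD, and PDGFRA fell, at 0.722 and 1.31 CPM in PSME4 KD against 2.59 and 2.58 CPM in control KD (edgeR). DESeq2 called neither gene, giving PDGFRA no adjusted p, and limma voom did not call COL1A1. Both calls were lost after GC correction and in every fit with 1 library left out, and that of PDGFRA also with no filter on counts. Their part in the results below was not tested. The summed tested markers were at 43.1 to 43.4 CPM in PSME4 KD and 32.6 to 36.6 CPM in control KD for leukocytes and platelets, and at 12.6 to 14.7 CPM in PSME4 KD and 14.6 to 16.2 CPM in control KD for endothelial cells.

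The comparison of PSME4 KD with control KD asks which transcripts differ once PSME4 is depleted. Among the fibrinogen chains the gamma chain transcript stood apart. FGG fell 3.18-fold in PSME4 KD cells, while FGA and FGB did not pass the test and had values on opposite sides of 0. So 1 of 3 chains was called, where 10.6% of the 13497 tested genes were called in either direction with 6.00% called lower and 4.56% called higher. The genes were chosen with earlier results of these data known, so this count is a description.

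FGG, whose chain carries the main platelet integrin binding site of fibrinogen, had 416 and 411 counts in PSME4 KD 1 and 2, against 1072 and 929 counts in control KD 1 and 2. Scaled to the library these were 27.3 and 27.0 CPM in PSME4 KD, against 92.7 and 79.8 CPM in control KD. Both PSME4 KD libraries were far below both control KD libraries, and they differed from each other by less than the control KD libraries did. The means were 27.1 ± 0.251 CPM in PSME4 KD and 86.3 ± 9.09 CPM in control KD (SD, n = 2 each). The log2 fold change was −1.67 (SE 0.21, 95% interval −2.09 to −1.25), and the edgeR quasi-likelihood test gave an adjusted p of 4.29e-06 (Benjamini-Hochberg, 13497 genes). Only 98 of these genes, 0.726%, had a lower log2 fold change. The authors' deposited table gives control KD over PSME4 KD. For FGG it has a log2 fold change of 1.66 and an adjusted p of 4.82e-12. A second column there, headed as adjusted p after FDR correction, has 1.98e-05. In bulk RNA, a smaller share of cells that express the gene and less of its RNA per cell cannot be told apart.

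FGA, whose chain carries the first peptide that thrombin releases, had 1619 and 1483 counts in PSME4 KD, against 1564 and 1420 counts in control KD. With the deeper PSME4 KD libraries scaled, these were 106 and 97.2 CPM in PSME4 KD and 135 and 122 CPM in control KD. The groups did not overlap, with PSME4 KD on the lower side, but 55.0% of all tested genes had groups that did not overlap, 28.4% on the lower side and 26.7% on the higher. The log2 fold change was −0.34 (SE 0.19, 95% interval −0.73 to 0.06), with an adjusted p of 0.269 by edgeR. The interval leaves room for a decrease of up to 0.73 on the log2 scale, which is still smaller than the nearest bound of the FGG interval.

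FGB, the beta chain gene, had 1697 and 1321 counts in PSME4 KD, against 1048 and 837 counts in control KD. In CPM it was at 111 and 86.6 in PSME4 KD, against 90.6 and 71.9 in control KD. The groups overlapped, since PSME4 KD 2 was below control KD 1. The log2 fold change was 0.28 (SE 0.20, 95% interval −0.13 to 0.70), with an adjusted p of 0.391 by edgeR. The value rested on single libraries, being 0.09 without PSME4 KD 1 and 0.13 without control KD 2, but 0.48 without PSME4 KD 2 and 0.46 without control KD 1.

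**Figure D1:**
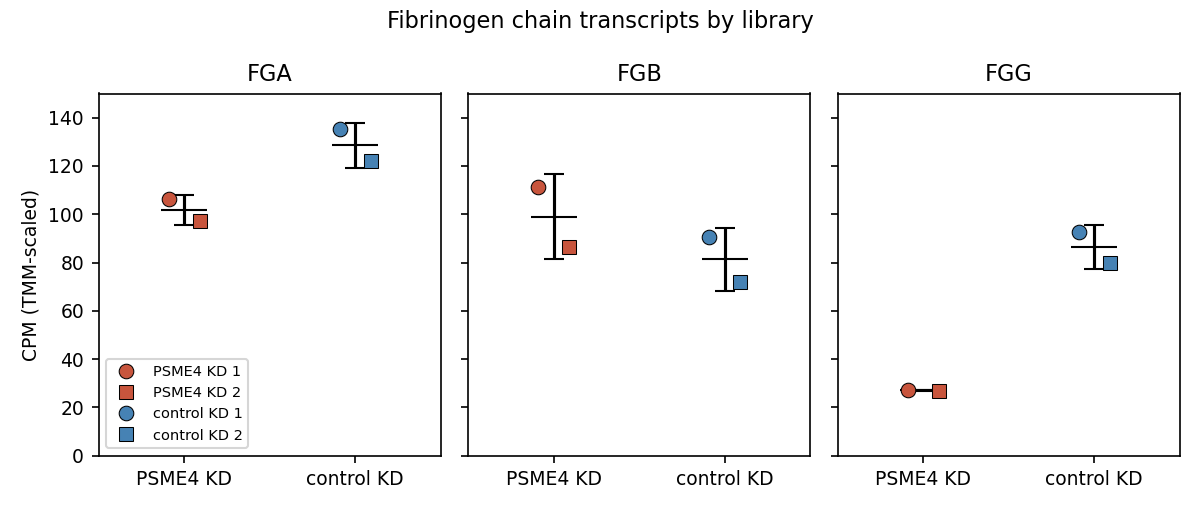
Level of each fibrinogen chain transcript in CPM, scaled by TMM, in the PSME4 KD and control KD libraries (points), with group means (horizontal lines) and SD (bars, n = 2). FGG was at 27.3 and 27.0 CPM in PSME4 KD and at 92.7 and 79.8 CPM in control KD, while FGA and FGB stayed between 71.9 and 135 CPM in all 4 libraries.

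The FGG decrease was called in every alternative that was run, and the calls of FGA and FGB did not change. Leaving out 1 library at a time kept the FGG value between −1.77 and −1.56, with adjusted p between 8.96e-05 and 0.0388 (edgeR, Benjamini-Hochberg). Only 45 to 281 genes of the whole table were called in these smaller fits. The GC content of the longest protein-coding transcript was similar for the 3 chains, at 41.8% for FGG, 43.4% for FGA and 41.4% for FGB. With GC content corrected within each library, the log2 fold changes were −1.51 for FGG, −0.22 for FGA and 0.45 for FGB, and again 1 of the 3 chains was called, where that fit called 9.22% of 12973 genes.

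**Figure D2:**
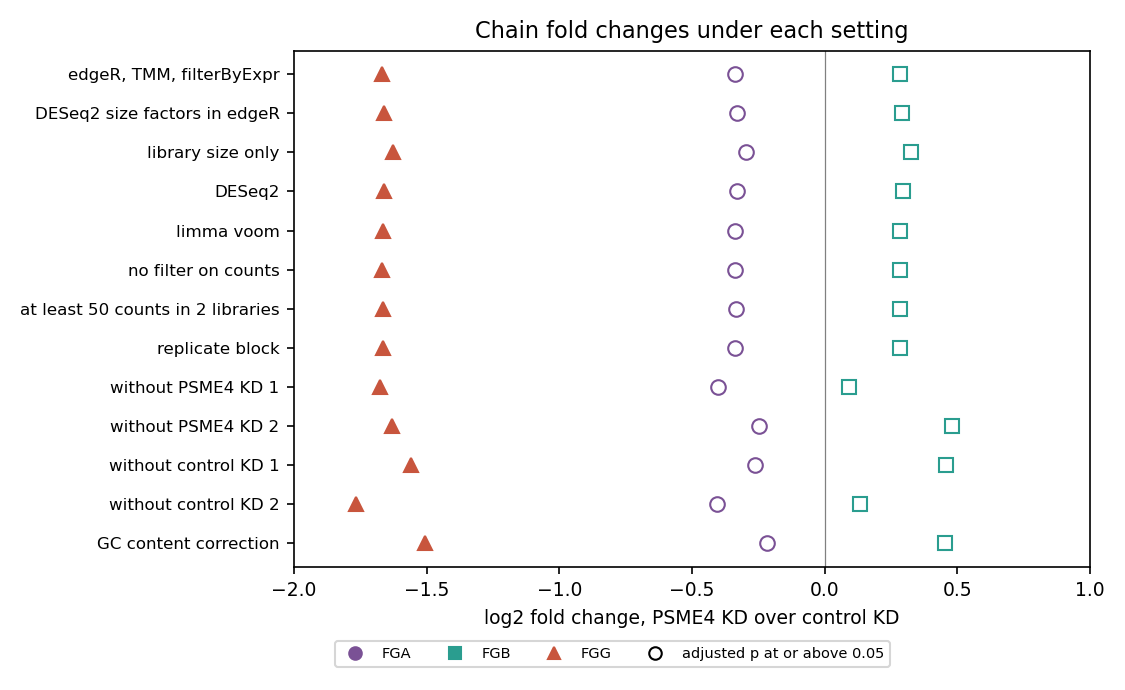
Log2 fold change of FGA, FGB and FGG, PSME4 KD over control KD, in the edgeR fit and under each alternative; filled symbols have an adjusted p under 0.05. FGG was filled in every row, at −1.77 to −1.51, and FGA and FGB were open in every row.

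Since the 3 genes are read in the same libraries, their ratios do not depend on how libraries are scaled. The ratio of FGG to FGA counts was 0.257 and 0.277 in PSME4 KD 1 and 2, against 0.685 and 0.654 in control KD 1 and 2. On the log2 scale it was −1.91 ± 0.08 in PSME4 KD and −0.58 ± 0.05 in control KD (SD, n = 2 each), a difference of −1.33. The difference was many times the SD within either group, but an SD of 2 libraries is a rough estimate of spread.

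The ratio of FGG to FGB counts was 0.245 and 0.311 in PSME4 KD, against 1.02 and 1.11 in control KD. On the log2 scale the means differed by −1.95, with SDs of 0.24 in PSME4 KD and 0.08 in control KD. The ratio of FGB to FGA counts was 1.05 and 0.891 in PSME4 KD, against 0.670 and 0.589 in control KD, a log2 difference of 0.62 with SDs of 0.17 in PSME4 KD and 0.13 in control KD. The groups did not overlap in any of these 3 ratios. A two-sided exact permutation test gave p = 0.333 for each of the 3 pairs of chains, and 0.333 after Benjamini-Hochberg adjustment, which is the smallest value that 2 libraries against 2 can give.

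**Figure D3:**
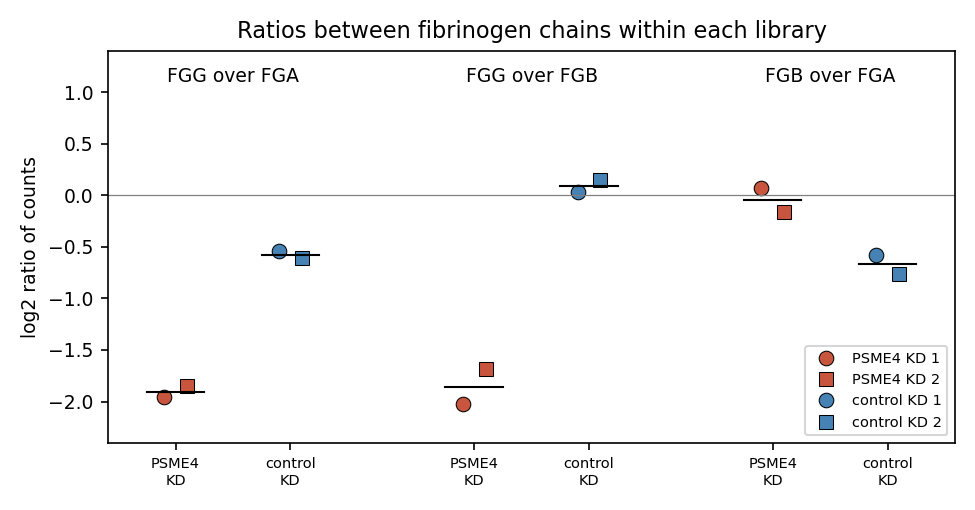
Log2 ratio of raw counts between pairs of fibrinogen chains in each PSME4 KD and control KD library (points) with group means (lines). FGG over FGA averaged −1.91 in PSME4 KD and −0.58 in control KD, and FGG over FGB averaged −1.86 in PSME4 KD and 0.09 in control KD.

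Of all fibrinogen counts, FGG made up 11.1% and 12.8% in PSME4 KD, against 29.1% and 29.2% in control KD. FGB made up 45.5% and 41.1% in PSME4 KD, against 28.4% and 26.3% in control KD. FGA held 43.4% and 46.1% in PSME4 KD and 42.5% and 44.6% in control KD, so its share overlapped between the groups. The shares of FGG and FGB did not overlap, and an exact permutation test gave p = 0.333 for both, the smallest possible, and 0.667 for FGA. Together the chains had 245 and 211 CPM in PSME4 KD, against 319 and 274 CPM in control KD, a log2 ratio of means of −0.38.

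Levels of different chains can be set side by side only per length. Per kilobase of the longest protein-coding transcript (1760 bases for FGG, 3678 for FGA and 1975 for FGB), FGG was at 15.5 and 15.3 CPM per kilobase in PSME4 KD, against 52.7 and 45.4 in control KD. FGA was at 28.9 and 26.4 CPM per kilobase in PSME4 KD, against 36.8 and 33.2 in control KD. FGB was at 56.4 and 43.9 CPM per kilobase in PSME4 KD, against 45.9 and 36.4 in control KD. In PSME4 KD the order from low to high was thus FGG, FGA, FGB, with no overlap between neighbours. In control KD the order was FGA, FGB, FGG within each library, although values of neighbouring chains overlapped when taken from different libraries.

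FGA has a shorter coding transcript of 2248 bases with different last exons, and the counts are per gene, so the form is unknown. With that length, chosen after seeing the data, FGA was at 47.3 and 43.3 CPM per kilobase in PSME4 KD, against 60.2 and 54.3 in control KD. FGA would then be the highest chain in both control KD libraries. In PSME4 KD it would be below FGB within each library, narrowly so in PSME4 KD 2 (43.3 against 43.9). Across the PSME4 KD libraries the 2 chains would overlap. FGG was the lowest chain in PSME4 KD under either length.

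The genes on either side of the cluster were listed from FBXW7 to GRIA2, 25 in all, of which 15 could be tested. Of these, 4 fell and none rose by edgeR, which is 26.7% where 10.6% of all tested genes were called. By DESeq2, and likewise by limma voom, 3 fell and none rose, in fits that called 1101 and 1394 genes of the whole table. An unadjusted edgeR p under 0.05, common over the whole table, was found for 5 of the 15. The median log2 fold change of the 15 was −0.34, against −0.0021 over all tested genes. After GC correction 2 fell and 1 rose, in a fit that called 9.22% of 12973 genes. PLRG1, a spliceosome component 12.6 kb from the cluster on the FGB side, was at 45.9 and 53.4 CPM in PSME4 KD, against 57.5 and 68.1 CPM in control KD, a log2 fold change of −0.34 (SE 0.20) that did not pass. LRAT, which esterifies retinol and lies 128.2 kb away on the FGG side, was at 3.54 and 3.15 CPM in PSME4 KD, against 4.50 and 3.70 CPM in control KD (−0.29, SE 0.34), and did not pass either.

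The 4 neighbours that fell were farther from the cluster, between 1054.2 and 2147.8 kb from its nearest edge. MND1, a factor of meiotic recombination, was at 14.9 and 13.4 CPM in PSME4 KD, against 25.1 and 25.6 CPM in control KD (log2 fold change −0.84, SE 0.23). PDGFC, a platelet-derived growth factor, was at 5.05 and 5.71 CPM in PSME4 KD, against 10.8 and 10.9 CPM in control KD (−1.01, SE 0.27). ARFIP1, which binds ARF GTPases, was at 44.9 and 40.5 CPM in PSME4 KD, against 60.9 and 69.8 CPM in control KD (−0.61, SE 0.20), and was at −0.31 after GC correction; that correction, limma voom, scaling by library size only, no filter on counts and the replicate block each ended its call. GUCY1A1, a subunit of soluble guanylate cyclase, rested on 5 and 6 counts in PSME4 KD and 17 and 13 counts in control KD. Its call was lost after GC correction and with no filter on counts. DESeq2 did not call it either, and the filter of at least 50 counts left it out. None of the 4 calls was kept in any fit with 1 library left out, whereas that of FGG was kept in each.

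**Figure D4:**
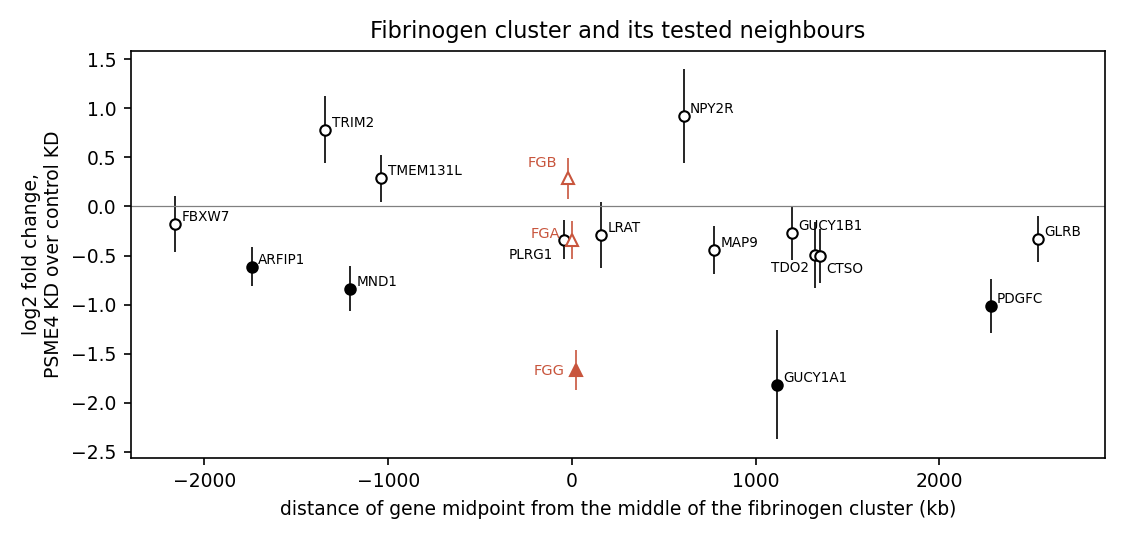
Log2 fold change, PSME4 KD over control KD, of the fibrinogen genes and their tested neighbours against distance from the middle of the fibrinogen cluster (kb); triangles are the fibrinogen chains, circles the neighbours, bars the SE, and filled symbols have an adjusted p under 0.05. FGG is at −1.67 between neighbours at −0.34 (PLRG1) and −0.29 (LRAT). The midpoints of the called neighbours lie at least 1114.1 kb from the middle of the cluster.

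Related genes were taken from 12 lists of 225 genes, of which 147 could be tested. By edgeR 9 rose and 13 fell, 15% of them, where 10.6% of all tested genes were called. Few of these calls were kept in fits with 1 library left out, which also called far fewer genes overall. Of the 22, 0 were kept without PSME4 KD 1, 7 without PSME4 KD 2, 1 without control KD 1 and 1 without control KD 2, in fits that called 45, 281, 53 and 94 genes of the whole table in that order. Fold changes could stay close to their size where calls were lost, as for F5 at −1.21 to −1.11 and PPARA at 1.11 to 1.26 on the log2 scale over these fits. All values below are from the fit with 4 libraries unless stated.

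Among 22 transcription and looping factors known to act at the cluster or in its liver-type control, 4 rose and 1 fell. This is 22.7%, where 10.6% of all tested genes were called, 4.56% higher and 6.00% lower. HNF4A, a nuclear receptor of liver and gut epithelium, was at 35.1 and 45.3 CPM in PSME4 KD, against 23.0 and 19.2 CPM in control KD (log2 fold change 0.93, SE 0.22). PPARA, a nuclear receptor activated by fibrates, was at 25.1 and 26.6 CPM in PSME4 KD, against 10.8 and 11.9 CPM in control KD (1.18, SE 0.23).

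USF1, an E-box binding factor, also rose, at 18.1 and 14.95 CPM in PSME4 KD against 8.56 and 6.62 CPM in control KD (1.12, SE 0.26). CEBPG, a C/EBP family member named after its values were seen, fell to 84.1 and 79.5 CPM in PSME4 KD, against 120 and 131 CPM in control KD (−0.62, SE 0.19; −0.51 and not called after GC correction). CEBPB, the C/EBP factor of the IL-6 response, was at 76.7 and 46.1 CPM in PSME4 KD, against 94.5 and 70.8 CPM in control KD. Its groups overlapped and it did not pass (−0.43, SE 0.22), but it was called at −0.63 after GC correction.

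**Figure D5:**
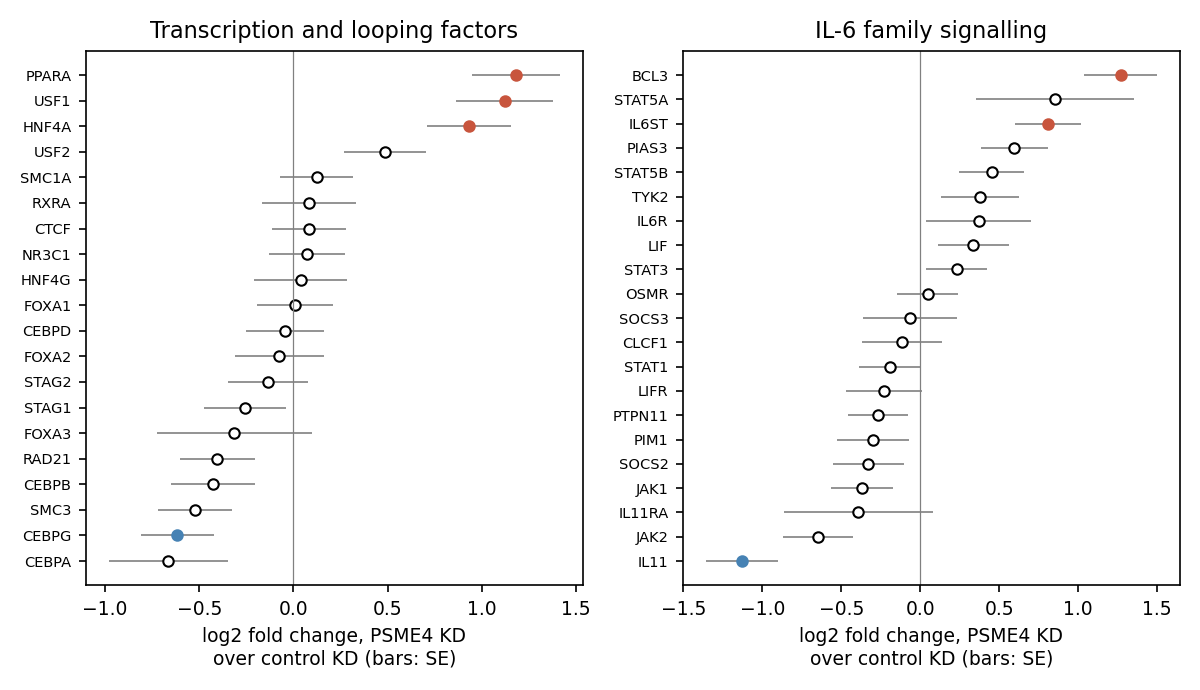
Log2 fold change, PSME4 KD over control KD, for the tested transcription and looping factors reported here (left) and IL-6 family genes (right), with bars for the SE; coloured filled symbols have an adjusted p under 0.05. PPARA (1.18), USF1 (1.12) and HNF4A (0.93) lie to the right of 0, while STAT3 (0.23) and NR3C1 (0.07) are open symbols near it.

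In the IL-6 family, 2 of 21 tested genes rose and 1 fell, 14.3% where 10.6% of all tested genes were called. IL6ST, the signalling receptor chain gp130, was at 361 and 307 CPM in PSME4 KD, against 151 and 231 CPM in control KD (log2 fold change 0.81, SE 0.21). The value depended on the control libraries and was 0.53 without control KD 1 and 1.15 without control KD 2. BCL3, a nuclear IκB protein, rose to 28.2 and 35.8 CPM in PSME4 KD, against 12.97 and 13.6 CPM in control KD (1.27, SE 0.23). IL11, a cytokine that signals through the same receptor chain, fell to 14.5 and 18.1 CPM in PSME4 KD, against 40.6 and 30.8 CPM in control KD (−1.13, SE 0.23).

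STAT3, its feedback inhibitor and the IL-6 receptor did not pass. STAT3 was at 129 and 124 CPM in PSME4 KD, against 113 and 102 CPM in control KD (log2 fold change 0.23, SE 0.19). SOCS3, a feedback inhibitor that STAT3 induces, had a log2 fold change of −0.07 (SE 0.30), and the receptor IL6R had 0.37 (SE 0.33). Among 13 glucocorticoid targets 1 fell, 7.69% where 10.6% of all tested genes were called. After GC correction 2 fell, in a fit that called 9.22% of 12973 genes. TSC22D3, which glucocorticoids induce, was at 14.6 and 14.1 CPM in PSME4 KD, against 29.8 and 22.5 CPM in control KD (−0.86, SE 0.23). FKBP5, another such target, was at 28.3 and 27.0 CPM in PSME4 KD, against 42.7 and 38.0 CPM in control KD (−0.55, SE 0.21), and did not pass, and the glucocorticoid receptor NR3C1 had a log2 fold change of 0.07 (SE 0.20).

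Of 19 other acute-phase and liver plasma proteins tested, 3 rose and none fell by edgeR. This is 15.8%, where 10.6% of all tested genes were called. None fell by DESeq2 or limma voom either. An unadjusted edgeR p under 0.05, common over the whole table, was found for 6 of the 19. The median log2 fold change was 0.30. After GC correction 3 rose and 1 fell, in a fit that called 9.22% of 12973 genes. RBP4, the plasma carrier of retinol, was at 66.8 and 55.4 CPM in PSME4 KD, against 22.6 and 18.7 CPM in control KD (1.57, SE 0.22). APOH, which binds phospholipids in plasma, was at 110 and 119 CPM in PSME4 KD, against 76.3 and 54.9 CPM in control KD (0.81, SE 0.20). SERPINA1, alpha-1 antitrypsin, was at 1.51 and 1.57 CPM in PSME4 KD, against 2.94 and 1.46 CPM in control KD, and its groups overlapped.

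Of the procoagulant factors 1 of 11 tested genes fell, 9.09%, which is near the 10.6% called over all tested genes. F5, the cofactor that speeds thrombin formation, was at 21.4 and 23.3 CPM in PSME4 KD, against 51.1 and 49.8 CPM in control KD (log2 fold change −1.18, SE 0.21). Tissue factor, F3, had 0.08 (SE 0.41). None of 9 anticoagulants and thrombin receptors passed by edgeR, DESeq2 or limma voom, and 2 of the 9 had an unadjusted p under 0.05; the tissue factor inhibitor TFPI had −0.28 (SE 0.19), and 0.05 after GC correction. In fibrinolysis 10% of the tested genes were called, near the 10.6% over all tested genes, as 1 of 10 fell. It was SERPINE2, an inhibitor of thrombin and plasminogen activators, at 218 and 236 CPM in PSME4 KD, against 430 and 436 CPM in control KD (−0.93, SE 0.19).

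The plasminogen activator genes PLAU (log2 fold change 0.18, SE 0.19) and PLAT (−0.73, SE 0.30) did not pass, although PLAT was called at −0.93 after GC correction. Neither tested crosslinking gene passed by edgeR, DESeq2 or limma voom, and 0 of the 2 had an unadjusted p under 0.05. Among 7 fibrinogen receptors 1 was called, 14.3% where 10.6% of all tested genes were called. This gene, TLR4, a pattern receptor reported to bind fibrinogen, fell. It was at 0.788 and 0.590 CPM in PSME4 KD, against 2.33 and 3.27 CPM in control KD (−2.01, SE 0.45); DESeq2 gave no adjusted p for a gene this low. The integrin chains ITGAV (−0.32, SE 0.20) and ITGB3 (−0.06, SE 0.44) did not pass.

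Genes whose proteins share the fibrinogen domain were few in these cells, 4 tested of 21. Of these 1 fell and 0 rose by edgeR, 25% where 10.6% of all tested genes were called. ANGPT1, a ligand of the TIE2 receptor, fell to 3.35 and 2.89 CPM in PSME4 KD, against 7.78 and 6.36 CPM in control KD (log2 fold change −1.18, SE 0.31; −0.87 and not called after GC correction). FGL1, a fibrinogen-like liver protein and ligand of the immune checkpoint receptor LAG3, was at 71.7 and 62.6 CPM in PSME4 KD, against 105 and 87.5 CPM in control KD. Its groups did not overlap, and it did not pass (−0.52, SE 0.20, adjusted p = 0.0893 by edgeR). Of 15 genes that fold and assemble secreted chains in the endoplasmic reticulum, 2 fell and none rose by edgeR. This is 13.3%, where 10.6% of all tested genes were called. By DESeq2 3 fell and 1 rose, and by limma voom 2 fell and none rose. Over the whole table DESeq2 called 1101 genes and limma voom 1394. An unadjusted edgeR p under 0.05, common over the whole table, was found for 7 of the 15. SEC61A1, the channel subunit of the translocon, was at 0.56 (SE 0.19) and not called by edgeR, but was called higher by DESeq2, with library size only (0.60) and with the filter of at least 50 counts. PDIA6, a disulphide isomerase, was at 415 and 337 CPM in PSME4 KD, against 758 and 540 CPM in control KD (−0.79, SE 0.21; −0.52 without control KD 1), and ERO1B, which reoxidises such enzymes, had −0.82 (SE 0.21), and −0.52 and no call after GC correction.

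Of 8743 genes that averaged 10 CPM or more, those whose pattern over the 4 libraries lay closest to the mean of the 3 chains were EID2, TIMM17A, CMPK1, CRIPT and LOC93622, at Euclidean distances of 0.0213 to 0.0472 between centred log2 CPM values. Between the chains, the distances were 1.33 for FGG and FGA, 1.96 for FGG and FGB, and 0.655 for FGA and FGB. For FGG alone, a comparison added after the values were seen, the closest gene was CA8 at 0.0898. CA8, a carbonic anhydrase-related protein, was at 25.2 and 24.8 CPM in PSME4 KD, against 81.6 and 68.4 CPM in control KD (log2 fold change −1.58, SE 0.21). These distances describe 4 libraries in 2 groups and were not tested.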

How the data were processed

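RNA from A549 cells was enriched on poly(A) beads and made into libraries with a Lexogen SENSE kit, per the labels' protocols. The submitters' processing notes name cutadapt, STAR and DESeq2 and the build hg38; versions, the read counter, strand setting and annotation were not stated there or in the headers. Per the file headers, the deposited table holds raw counts per gene, used here, and size-factor normalized signal values and log2 values, which were not used. The log2 fold change and p-values of the authors' deposited table run control KD over PSME4 KD and were quoted only as theirs. No row has a largest count under 6, so genes with fewer counts are not analysed here.

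Counts were tested with edgeR 4.0.16 in R 4.3.3 (filterByExpr, TMM, quasi-likelihood test, Benjamini-Hochberg over 13497 genes, threshold 0.05), with a term for group and 2 residual degrees of freedom. CPM are TMM-scaled. DESeq2 1.42.0 and limma voom (3.58.1) were alternatives, with other scalings, filters, a replicate block, each library left out, and a correction for the GC content of the longest protein-coding GENCODE transcript (lowess span 0.4, 96.1% of genes). The code was tested on simulated data. Replicates differed by more than sampling noise (chi-square per degree of freedom 18.0 in PSME4 KD and 22.3 in control KD). Ratios and shares were compared by two-sided exact permutation tests. Gene positions and promoter sequences are from RefSeq, GRCh38.p14.

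Beside the 3 chains and PSME4, up to 4 genes per list with the smallest p, a fixed set of regulators, receptors and neighbours, and the 5 genes of closest pattern were named. The chains and lists were chosen with earlier results of these data known. Some genes counted in the lists are not reported here by name.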

Additional observations from a re-analysis of the deposited data

How the results depend on the processing

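FGG was called lower and FGA and FGB were not called under every alternative run. Without 1 library each, FGA ranged from −0.40 to −0.25, FGB from 0.09 to 0.48, FGG from −1.77 to −1.56 and PSME4 from −1.17 to −0.97; PSME4 had an adjusted p of 0.144 without PSME4 KD 1, 0.0522 without control KD 1 and 0.0599 without control KD 2 (edgeR), and 0.0145 without PSME4 KD 2. These fits called 45 to 281 genes of the whole table, against 1426, and 0 to 7 related genes, against 22. The summed fibrinogen log2 ratio ranged from −0.49 to −0.26 with 1 library left out, and was −0.23 after GC correction. The difference in share, PSME4 KD minus control KD, ranged from −0.13 to 2.62 percentage points for FGA, 13.7 to 18.1 for FGB and −18.0 to −16.3 for FGG; per length it was 20.8 for FGB and −22.6 for FGG, and −19.3 for FGG with the shorter FGA transcript. Both moved because the lengths differ.

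Samples with the same number did not deviate together (correlation −0.0429 over 8746 genes). With 2 libraries per group this cannot settle whether the numbers pair libraries, and the labels do not say. With the replicate block 1554 genes and 22 related genes were called, FGG was at −1.66, FGA at −0.34 and FGB at 0.28.

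For 97 other named genes, 978 of 1127 alternatives kept direction and call, 117 lost the call, 16 gained one and 16 changed sign; none of the last had been called, and the cause was not tested. TFPI was at 0.048 with GC correction and ITGB3 at 0.0065 with limma voom. The others changed sign when a library was left out: PSME4 KD 1 for F13B and ESAM, PSME4 KD 2 for ANGPTL4, EGFL7 and SOCS3, control KD 1 for F13B, ANGPTL4, THY1, EGFL7, SERPINA1 and NR3C1, and control KD 2 for ITGB3, FBXW7 and MAP9. Over these fits F13B ranged from −0.21 to 0.44, ESAM from −0.37 to 0.017, ANGPTL4 from −0.33 to 0.17, EGFL7 from −0.39 to 0.067, SOCS3 from −0.53 to 0.31, THY1 from −0.59 to 0.20, SERPINA1 from −0.92 to 0.075, NR3C1 from −0.15 to 0.33, ITGB3 from −0.45 to 0.49, FBXW7 from −0.44 to 0.16 and MAP9 from −0.83 to 0.0033. Depth limits genes at a few CPM, such as GUCY1A1 and TLR4.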
